A study of Mus musculus with 6 samples.

Results

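The genes described here are the mouse Klhl and Kbtbd genes, which encode BTB and kelch proteins that act as substrate adaptors of the ubiquitin ligase scaffold Cul3. They were measured in fully-grown oocytes from 3 Marf1-mutant and 3 wild-type samples, 1 array each. Members were selected on gene symbol (Klhl or Kbtbd followed by a number) among probe sets annotated to a single gene. Where a gene had several probe sets, the one chosen had the highest mean log2 expression over the 6 arrays. The rule found 45 genes of 19938 measured. RefSeq holds 46 symbols that match it, and Klhl17 was not analysed here. The 4 members Kbtbd11, Kbtbd12, Klhl31 and Klhl32 had 2 probe sets each.

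The mutant females carried a chemically induced Marf1 allele on both copies (Marf1 ENU/ENU), and the wild-type females were Marf1+/+. Both groups had the mixed background labelled C57BL/6J;C3HeB/FeJ, and both received 5 IU of equine chorionic gonadotropin for 46 hours from 21 days of age, so all oocytes came from 23-day-old females. The oocytes were at the germinal-vesicle stage, had been freed of cumulus cells by pipetting, and are described in the labels as transcriptionally silent. The mutation is present in the whole animal and not in the oocyte alone. The labels call the samples individual but do not say how many females gave each one, so the tests weigh genotype against the spread of these samples alone, which may be technical.

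A Cul3 ligase is built from the scaffold, a RING protein (Rbx1) that recruits the ubiquitin-charged enzyme, and an adaptor. The adaptor's BTB domain holds Cul3 and its kelch repeats hold the protein to be modified, here called the client. Attachment of Nedd8 switches the scaffold on and the COP9 signalosome removes it. A fully-grown oocyte does not transcribe, so its mRNA is a store laid down during growth, and Marf1 is an oocyte protein with RNA-binding and nuclease domains that is required for female fertility in mice.

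Promoter sequences of 5 members are shown because their genes gave the largest differences between genotypes (Kbtbd2 and Klhl7) or because they hold the E box hexamer CACGTG (Klhl20, Klhl22 and Klhl28). Each is the 250 bases before the annotated start, 5′ to 3′ on the gene's strand, from RefSeq with build GRCm38.p6. Capitals mark matches, on either strand, to the TATA box TATAAA, the CCAAT box CCAAT, the ETS-type motif CCGGAAG or the E box. Kbtbd2 lies at chr6:56797214-56797463 on the minus strand and Klhl7 at chr5:24100340-24100589 on the plus strand. Klhl20 lies at chr1:161131480-161131729 (minus), Klhl22 at chr16:17759391-17759640 (plus) and Klhl28 at chr12:64965537-64965786 (minus).
Kbtbd2: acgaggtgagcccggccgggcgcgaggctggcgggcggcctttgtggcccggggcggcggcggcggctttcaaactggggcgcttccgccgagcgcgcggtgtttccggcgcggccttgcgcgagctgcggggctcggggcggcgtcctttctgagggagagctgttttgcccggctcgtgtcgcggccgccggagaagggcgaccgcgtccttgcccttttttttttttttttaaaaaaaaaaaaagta
Klhl7: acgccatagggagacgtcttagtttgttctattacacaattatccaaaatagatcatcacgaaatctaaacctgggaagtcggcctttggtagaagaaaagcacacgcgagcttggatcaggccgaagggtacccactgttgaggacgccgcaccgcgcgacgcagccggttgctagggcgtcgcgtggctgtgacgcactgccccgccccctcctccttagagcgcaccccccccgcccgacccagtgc
Klhl20: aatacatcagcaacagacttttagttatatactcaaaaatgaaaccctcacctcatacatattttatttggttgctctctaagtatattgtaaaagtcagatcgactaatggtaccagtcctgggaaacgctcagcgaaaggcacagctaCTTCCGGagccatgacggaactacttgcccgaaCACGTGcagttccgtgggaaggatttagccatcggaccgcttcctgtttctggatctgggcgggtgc
Klhl22: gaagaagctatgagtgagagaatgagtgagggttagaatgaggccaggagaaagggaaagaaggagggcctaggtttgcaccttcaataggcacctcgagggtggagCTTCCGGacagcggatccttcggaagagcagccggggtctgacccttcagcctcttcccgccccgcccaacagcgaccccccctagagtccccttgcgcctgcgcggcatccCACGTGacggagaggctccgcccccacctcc
Klhl28: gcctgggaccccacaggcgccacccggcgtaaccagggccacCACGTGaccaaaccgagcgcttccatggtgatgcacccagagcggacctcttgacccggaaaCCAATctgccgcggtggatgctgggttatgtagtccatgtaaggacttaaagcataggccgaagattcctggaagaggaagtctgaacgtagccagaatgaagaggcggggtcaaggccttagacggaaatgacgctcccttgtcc
Kbtbd2 and Klhl7, the members with the largest differences, held none of the 4 motifs in this window. These 5 sequences and the 4 motifs were chosen after the expression values had been seen.

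Values are log2 expression, and a difference is the Marf1-mutant mean minus the wild-type mean with its standard error (SE). Probe sets differ in how strongly they hybridise, so levels were compared between arrays and not between genes. A gene is called higher or lower where the Benjamini-Hochberg adjusted p of limma, over all 35556 probe sets, was under 0.05. Marf1 itself measured 5.98, 6.40 and 6.16 in mutant oocytes and 9.21, 9.16 and 9.31 in wild-type oocytes, 8.26-fold lower in the mutants (log2 difference -3.05, SE 0.15, limma adjusted p 1e-04). The 2 sets of values do not overlap, and they go with the genotype labels.

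Median log2 expression per array was 4.56 to 4.76 in mutant and 4.60 to 4.67 in wild-type oocytes. Mutant replicate 3 stood apart, with a correlation of 0.970 to 0.973 with the other mutants across probe sets, where the other pairs within a genotype reached 0.984 to 0.985. Oocyte markers (16 measured, none dim on all arrays) had a mean level of 9.85 to 10.1 in mutant and 10.1 to 10.3 in wild-type oocytes, and 1 of them, Kit, was called lower. Cumulus and granulosa markers (12 measured) had a mean of 4.82 to 5.09 in mutant and 4.71 to 4.81 in wild-type oocytes, with Kitl and Nr5a2 called higher. The other 10 of these markers averaged 4.23 to 4.55 in mutant and 4.39 to 4.54 in wild-type oocytes. They were left by taking out the called genes, which itself favours overlap, so no conclusion is drawn from these ranges. Of the 12 markers, 8 had a negative difference (median over the 12, -0.05). In theca and stroma (8 markers, Pdgfra called higher) the ranges were 4.18 to 4.45 in mutant and 4.16 to 4.29 in wild-type oocytes. In blood, immune and endothelial cells (8 markers, Pecam1 called lower) they were 4.16 to 4.23 in mutant and 4.08 to 4.32 in wild-type oocytes. On all arrays, 4 cumulus and granulosa markers (Fshr, Slc38a3, Ptx3 and Tnfaip6), 4 theca and stroma markers (Cyp17a1, Cyp11a1, Dcn and Acta2) and 6 of the last list (all but Cd68 and Pecam1) lay below 4.51, called the dim level here: the mean levels of 1190 olfactory and vomeronasal receptor genes lie below it in 95% of cases. The part of other cells in the results below was not tested, and in bulk samples fewer cells of a type and less RNA per cell cannot be told apart.

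Of the 45 members, 11 were higher and 1 was lower in mutant oocytes, which is 24.4% and 2.22% of the members. In either direction 26.7% of members were called. Over all 19938 genes, 6.4% were called higher, 4.04% lower and 10.4% in either direction (1276 and 806 genes, and 1548 and 527 after cyclic loess normalization). The share of members called higher was above that of all genes, and the share called lower was below it. With a change of at least 2-fold also required, 8 members were higher and 1 was lower, where the same rule called 4.63% of all genes higher and 1.11% lower. At an unadjusted p under 0.05, 13 members were higher and 3 lower, where 11% of all genes were higher and 13.5% lower. The members were proposed with results of these data known, so the excess of higher calls is a description of the family and not independent evidence.

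**Figure D1:**
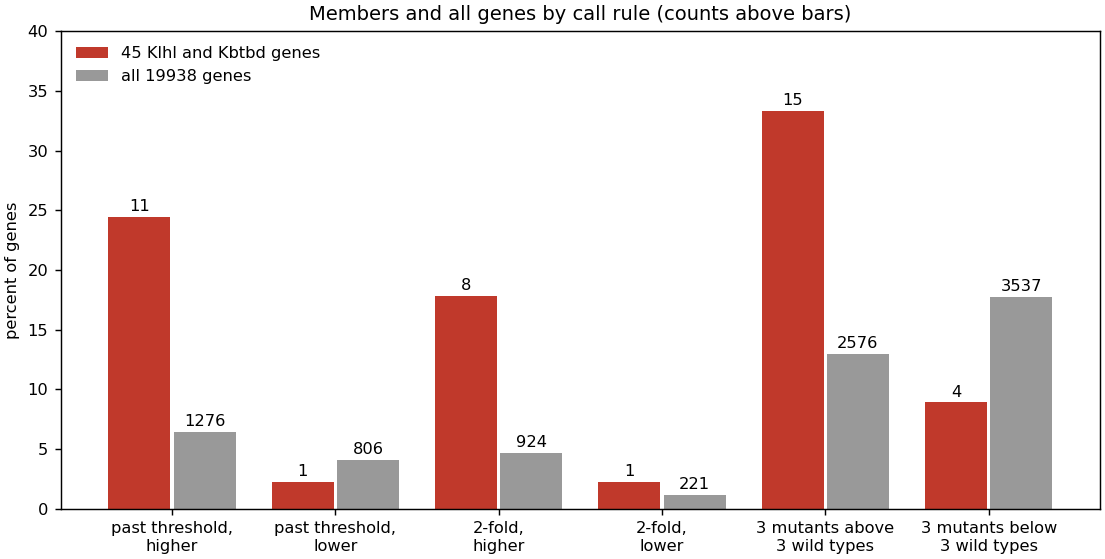
Share of the 45 Klhl and Kbtbd genes (red, left bar of each pair) and of all 19938 genes (grey) that met each call rule, in percent, with the number of genes above each bar. Under the first rule 11 members stand at 24.4% and all genes at 6.4%, and under the lower rule 1 member stands at 2.22% and all genes at 4.04%.

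Counting arrays and not adjusted p-values, all 3 mutant values lay above all 3 wild-type values in 15 members (33.3%), where 12.9% of all genes did so. They lay below in 4 members (8.89%), where 17.7% of all genes did so, and the 2 groups overlapped in the other 26. The median log2 difference was 0.11 over the members, of which 25 were positive and 20 negative, and -0.04 over all genes. The higher members thus stood out from a family whose median lay near 0. The number of higher members depended on single arrays: it was 5 without mutant replicate 1, 8 without mutant replicate 2 or 3, 5 without wild-type replicate 1 or 3, and 7 without wild-type replicate 2.

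**Figure D2:**
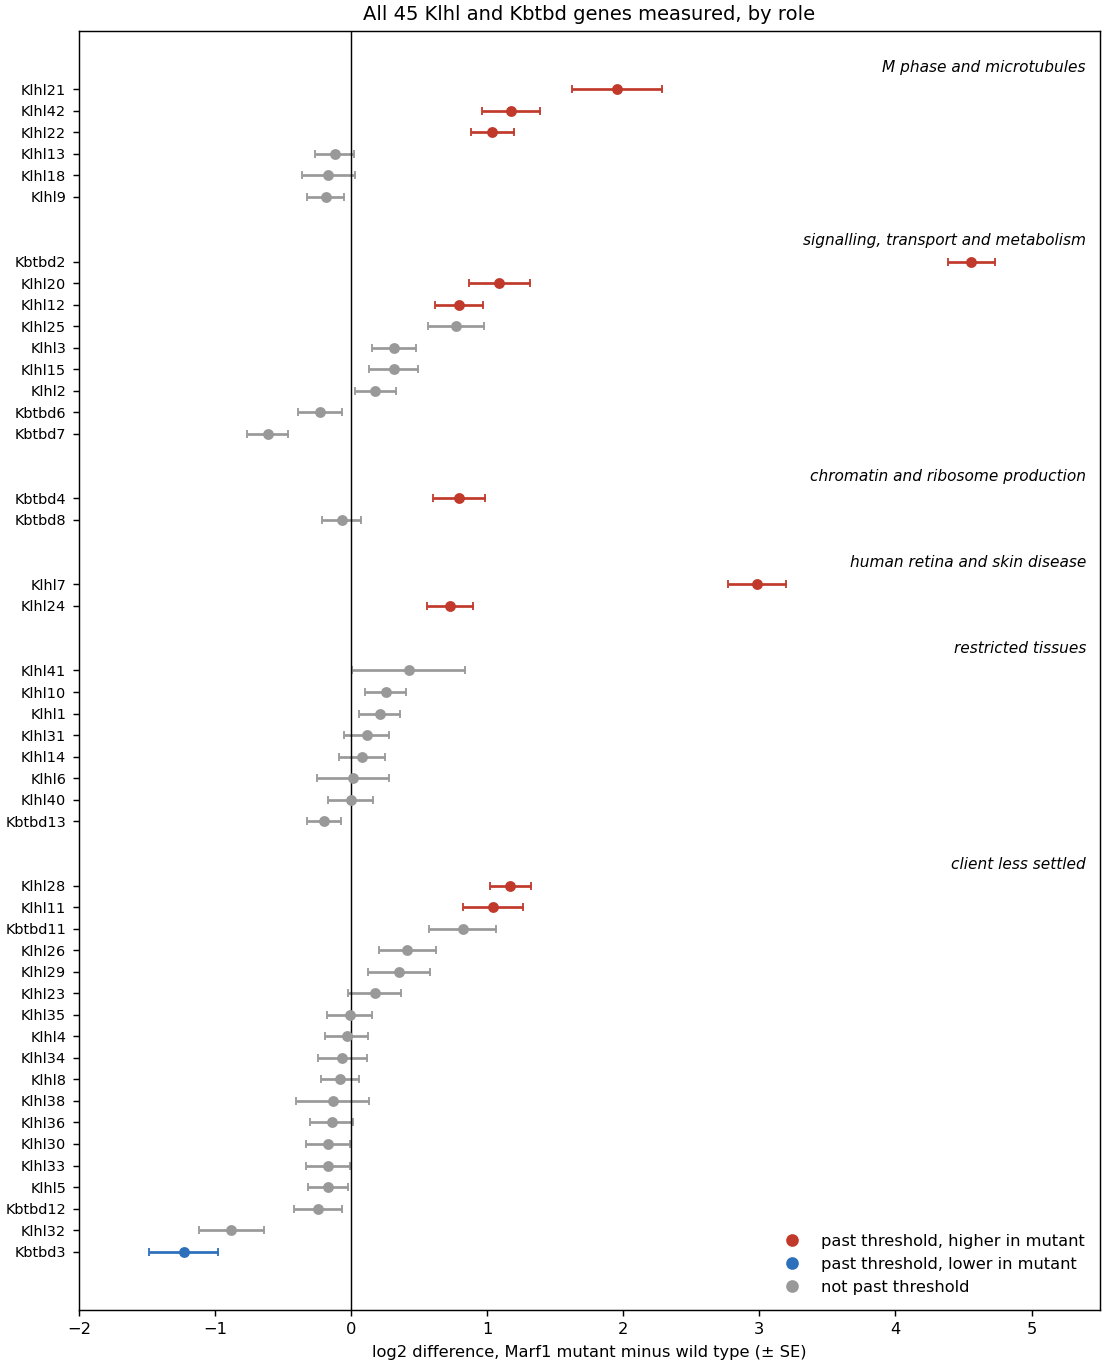
Log2 difference (Marf1 mutant minus wild type, ± SE) of each of the 45 Klhl and Kbtbd genes, grouped by known role. Red points passed the threshold higher in mutant oocytes (11 genes), the blue point passed it lower (Kbtbd3) and grey points did not pass it; Kbtbd2 at 4.56 and Klhl7 at 2.98 lie farthest from 0.

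Among adaptors with known signalling, transport or metabolic clients, 3 of 9 members were higher and none was lower, where 6.4% and 4.04% of all genes were. The role groups used here were drawn up with earlier results of these data known, so their counts are descriptions only. Kbtbd2, which in mice marks the insulin-signalling subunit p85α (Pik3r1) for turnover, measured 8.92, 8.80 and 8.42 in mutant oocytes and 4.17, 4.27 and 4.03 in wild-type oocytes. Every mutant array was far above every wild-type array, and the wild-type values were all below the dim level. The difference was 4.56 (SE 0.17, limma adjusted p 5.63e-05), equal to 23.5-fold on the deposited values. Because the wild-type signal was dim, the fold may be a lower bound. Kbtbd2 overlaps Gm10209 in the annotation, whose own difference was 0.15 (limma adjusted p 0.823).

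Klhl20, whose human protein directs PML, DAPK1 and the autophagy kinase ULK1 to degradation, measured 7.33, 6.79 and 7.03 in mutant oocytes and 6.38, 5.73 and 5.77 in wild-type oocytes. The genotypes did not overlap, at a difference of 1.09 (SE 0.23, limma adjusted p 0.0271). Klhl12, whose human protein modifies the coat protein SEC31 for collagen export and also acts on Dishevelled, measured 7.97, 7.58 and 7.80 in mutant oocytes and 7.24, 6.96 and 6.78 in wild-type oocytes. Its difference was smaller, 0.79 (SE 0.18, limma adjusted p 0.0359), with no overlap. Klhl20 missed the threshold without mutant replicate 1 (limma adjusted p 0.0869) or 3 (0.0563) and without wild-type replicate 2 (0.0941) or 3 (0.107). Klhl12 missed it with any 1 array left out (0.0666 without mutant replicate 3, and 0.0512 to 0.135 over all 6).

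The remaining 6 members with such clients were not called. Klhl25, known in human cells for the translation repressor 4E-BP1 and for ATP-citrate lyase, measured 6.59, 6.66 and 7.21 in mutant oocytes and 6.15, 6.17 and 5.83 in wild-type oocytes, without overlap (difference 0.77, limma adjusted p 0.0655). Kbtbd7 measured 10.09, 9.89 and 9.68 in mutant oocytes and 10.54, 10.51 and 10.45 in wild-type oocytes, also without overlap and in the other direction (-0.61, adjusted p 0.0501). Kbtbd6, its neighbour in the genome and its partner in human cells in controlling the Rac activator TIAM1, differed by -0.23 (adjusted p 0.548) and overlapped between genotypes. The WNK kinase adaptors Klhl2 (0.18) and Klhl3 (0.32), and Klhl15 (0.31), which acts on a PP2A regulatory subunit, overlapped between genotypes too. Klhl3 had a wild-type mean below the dim level.

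Among adaptors that act in M phase or on microtubules, 3 of 6 were higher and none was lower (6.4% and 4.04% of all genes). Klhl21, which in human cells works with Klhl9 and Klhl13 to place Aurora B on the anaphase spindle, measured 6.73, 6.85 and 6.35 in mutant oocytes and 4.56, 4.07 and 5.43 in wild-type oocytes. The wild-type arrays were spread widely (SD 0.69, n = 3), yet all lay below the lowest mutant array, with a difference of 1.96 (SE 0.33, limma adjusted p 0.012). Klhl42, which in human cells is an adaptor for the microtubule-severing subunit katanin p60 (Katna1), measured 6.49, 5.93 and 6.23 in mutant oocytes and 4.75, 5.38 and 5.00 in wild-type oocytes. The 2 genotypes were apart on every array (difference 1.17, SE 0.21, limma adjusted p 0.0169).

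Klhl22, whose human protein removes the kinase PLK1 from kinetochores, measured 6.58, 6.85 and 6.69 in mutant oocytes and 5.90, 5.57 and 5.54 in wild-type oocytes. Arrays of each genotype lay close together and the genotypes did not overlap (difference 1.04, SE 0.16, limma adjusted p 0.00779). Klhl22 kept its call with each array left out in turn (limma adjusted p 0.0151 to 0.0423). Klhl21 missed the threshold only without wild-type replicate 1 (0.0543), and Klhl42 without mutant replicate 1 (0.059) or wild-type replicate 1 (0.0656) or 3 (0.0709).

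The other 3 members of that group gave small differences with overlapping arrays. Klhl9 and Klhl13, the partners of Klhl21, averaged 6.92 ± 0.11 and 7.88 ± 0.17 in mutant oocytes, against 7.11 ± 0.10 and 8.0 ± 0.02 in wild-type oocytes (SD, n = 3), so their differences were -0.19 and -0.12. Klhl18, an activator of Aurora A at mitotic entry in human cells, differed by -0.17. Klhl21 was thus called higher without a call for either partner; the difference between these genes' changes was not tested.

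**Figure D3:**
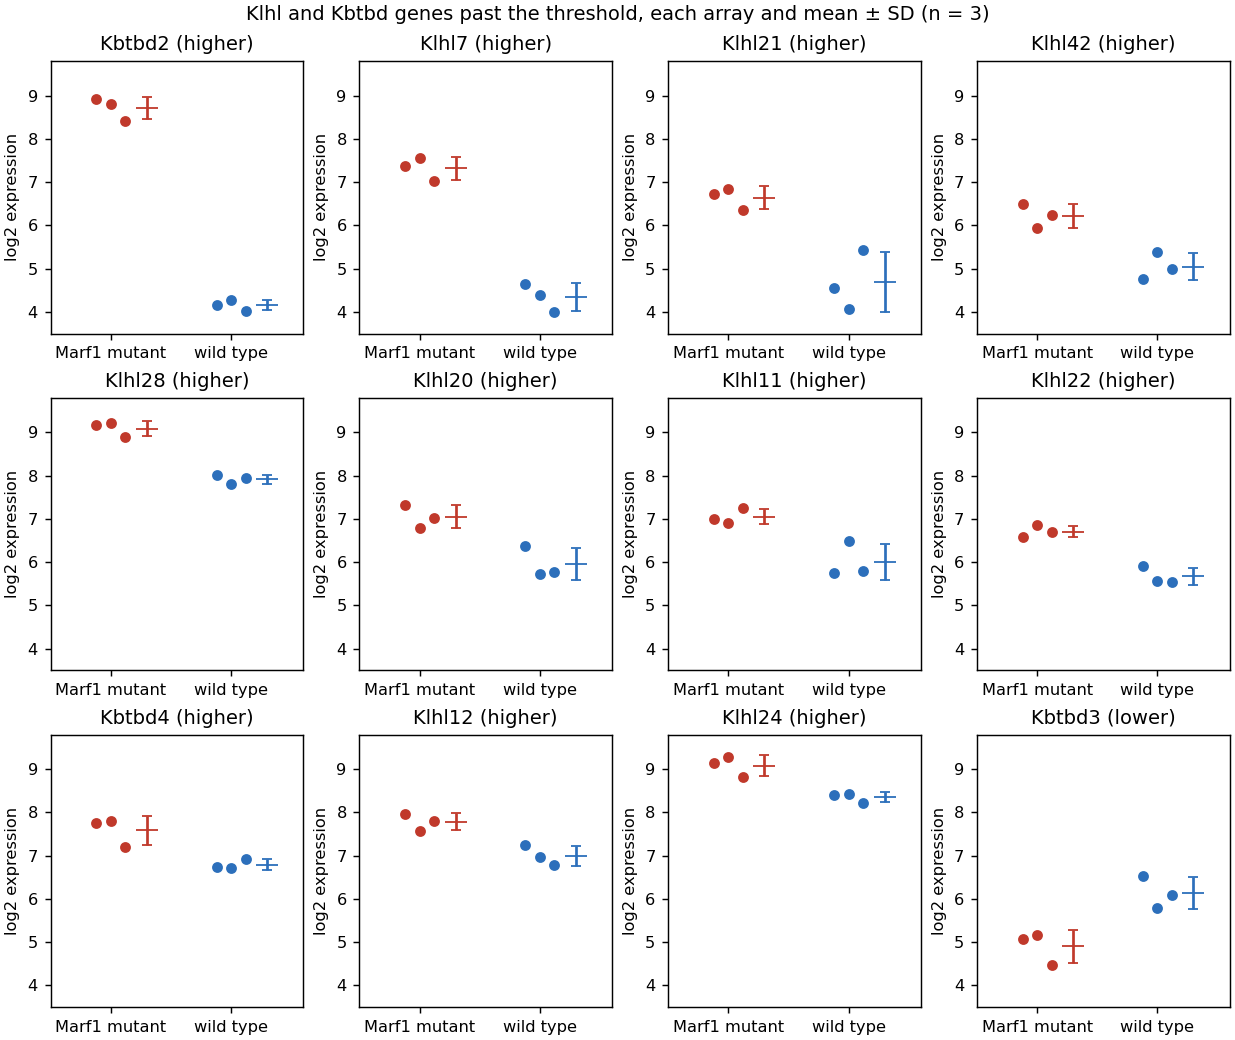
Log2 expression of the 12 called Klhl and Kbtbd genes on each array, Marf1 mutant (red) left and wild type (blue) right, with mean and SD (n = 3) beside the points and 1 common vertical scale. In each of the 12 panels the 3 mutant points lie on one side of the 3 wild-type points, above in 11 genes and below in Kbtbd3.

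Klhl7 and Klhl24, set apart here for human retina and skin disease, were both higher. This pair was formed with earlier results known and does not stand for disease genes as a class. Klhl7, mutated in a dominant form of retinitis pigmentosa, measured 7.38, 7.56 and 7.03 in mutant oocytes and 4.64, 4.39 and 4.00 in wild-type oocytes. The genotypes were far apart, the wild-type mean was below the dim level, and the difference was 2.98 (SE 0.21, limma adjusted p 2.81e-04), or 7.89-fold on the deposited values, which may likewise be a lower bound. In the annotation Klhl7 overlaps the pseudogene Gm3724, which has no measured value here.

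Klhl24, whose stabilised mutant protein causes skin fragility in people, measured 9.14, 9.29 and 8.81 in mutant oocytes and 8.41, 8.43 and 8.22 in wild-type oocytes. Its signal was well above the dim level on every array, and the genotypes did not overlap (difference 0.73, SE 0.17, limma adjusted p 0.04). Klhl24 kept its call without mutant replicate 3 (limma adjusted p 0.0161) and missed the threshold without any other single array (0.0959 to 0.15), whereas Klhl7 kept its call in all 6 cases (5.96e-04 to 0.00274).

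Of the adaptors linked to chromatin or ribosome production, Kbtbd4 was higher and Kbtbd8 was not called. Kbtbd4, known for the CoREST complex in human medulloblastoma, measured 7.75, 7.81 and 7.20 in mutant oocytes and 6.74, 6.71 and 6.93 in wild-type oocytes. The lowest mutant array still lay above the highest wild-type array (difference 0.79, SE 0.19, limma adjusted p 0.0485). This call was kept without mutant replicate 3 (limma adjusted p 0.00852) and was missed without any other array (0.109 to 0.156). Kbtbd8, which acts on the ribosome factors NOLC1 and TCOF1 in human neural crest formation, averaged 10.55 ± 0.17 in mutant and 10.62 ± 0.02 in wild-type oocytes (SD, n = 3), a difference of -0.07 with overlapping arrays.

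Of the 18 members whose clients are less settled, 2 were higher and 1 was lower (6.4% and 4.04% of all genes). Klhl28 measured 9.16, 9.21 and 8.89 in mutant oocytes and 8.01, 7.80 and 7.94 in wild-type oocytes. Arrays within each genotype were tight and the genotypes were clearly apart (difference 1.17, SE 0.15, limma adjusted p 0.00318). Togaram1, which overlaps Klhl28 in the annotation, differed by 0.11 (limma adjusted p 0.81). Klhl11, known as an autoantigen in a human encephalitis linked to testicular tumours, measured 6.99, 6.91 and 7.25 in mutant oocytes and 5.74, 6.48 and 5.80 in wild-type oocytes. Wild-type replicate 2 came nearest to the mutants, and the difference was 1.04 (SE 0.22, limma adjusted p 0.0308). Klhl11 was called without wild-type replicate 2 (limma adjusted p 0.0114) but not without any other array (0.0658 to 0.119), and Klhl28 was called in all 6 cases (0.00309 to 0.0193).

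Kbtbd3 was the 1 member called lower, at 5.08, 5.17 and 4.47 in mutant oocytes and 6.52, 5.79 and 6.10 in wild-type oocytes. No mutant array reached the lowest wild-type array, with a difference of -1.23 (SE 0.25, limma adjusted p 0.0263). The call was missed without mutant replicate 1 (limma adjusted p 0.0598) or without wild-type replicate 1 (0.0893) or 3 (0.0879). Klhl32 was also below wild type on every array without being called, at 5.94, 5.56 and 5.16 in mutant oocytes and 6.59, 6.08 and 6.63 in wild-type oocytes (difference -0.88, adjusted p 0.0734). Kbtbd11 showed the opposite order, at 7.27, 6.58 and 7.25 in mutant oocytes and 5.89, 6.22 and 6.53 in wild-type oocytes (0.82, adjusted p 0.0969), while its second probe set differed by 0.05. The second probe set of Klhl32, dim in both genotypes, overlapped between them at a difference of -0.12 (limma adjusted p 0.822).

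The other 13 members of this group had differences from -0.24 (Kbtbd12) to 0.41 (Klhl26). Klhl8 gave a strong and even signal, averaging 9.57 ± 0.14 in mutant and 9.66 ± 0.08 in wild-type oocytes (SD, n = 3). Klhl29, Klhl26, Klhl35 and Klhl36 had means above the dim level in both genotypes and were not called. Klhl4, Klhl5, Klhl23, Klhl30, Klhl33, Klhl34, Klhl38 and Kbtbd12 had means below the dim level in both genotypes.

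None of the 8 members known from restricted tissues was called by limma, and none had an unadjusted p under 0.05. They comprise the skeletal muscle proteins Kbtbd13, Klhl31, Klhl40 and Klhl41, neuronal Klhl1, the B-cell proteins Klhl6 and Klhl14, and Klhl10, which is required for spermatid maturation in mice. Both genotypes had means below the dim level in 6 of them. Klhl1 averaged 5.74 ± 0.19 in mutant and 5.53 ± 0.09 in wild-type oocytes. Klhl41 measured 3.86, 5.64 and 4.27 in mutant oocytes and 4.07, 4.35 and 4.08 in wild-type oocytes, so its mutant mean passed the dim level through replicate 2 alone.

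Taking dim signals over the whole family, 14 of 45 members (31.1%) had means below the dim level in both genotypes, as did 35.5% of all genes. A further 4 members, Kbtbd2, Klhl3, Klhl7 and Klhl41, were below it in wild-type oocytes only, and none was below it in mutant oocytes only. Over all 19938 genes, 532 were below it in wild-type oocytes only and 590 in mutant oocytes only. Of the 11 higher members, mutant replicate 3 was the lowest mutant array in 6 and the highest in 1. Without that array 8 members were higher and 1 was lower. The plot of adjusted p with each array left out shows how far each call rests on single arrays.

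**Figure D4:**
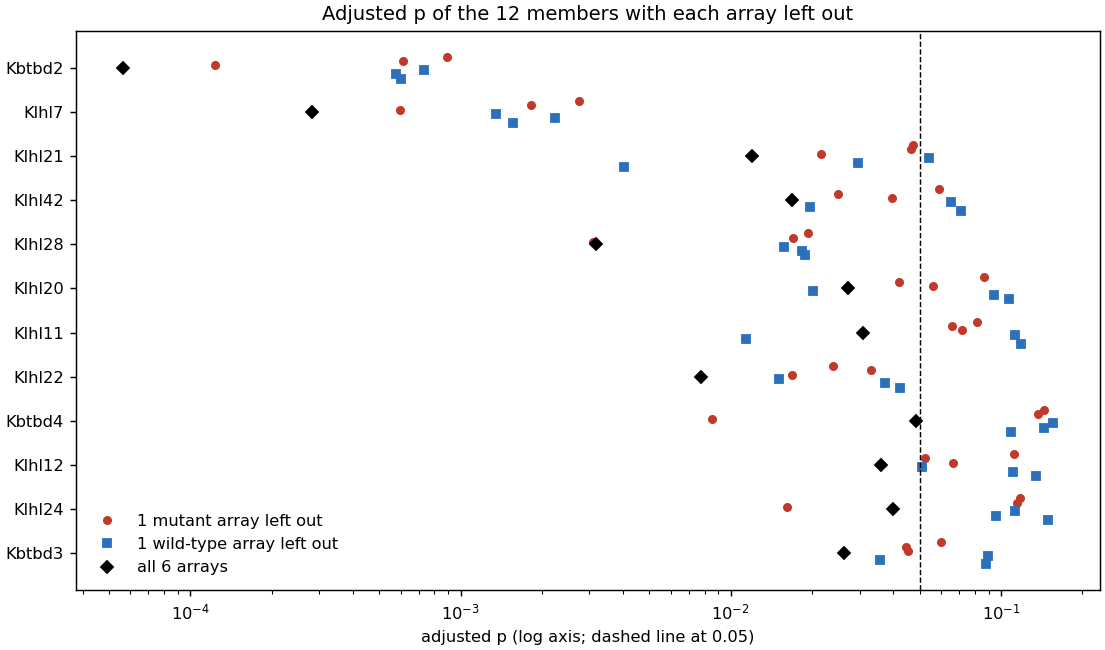
Adjusted p (limma, log axis) of the 12 called members with all 6 arrays (black diamonds) and with 1 mutant (red circles) or 1 wild-type array (blue squares) left out; the dashed line marks 0.05. All points of Kbtbd2, Klhl7, Klhl22 and Klhl28 lie left of the line, and every point of Klhl12 other than the diamond lies right of it (0.0512 to 0.135).

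Of the pairs of members that are neighbours in the annotation, Kbtbd6 and Kbtbd7 were both uncalled. Kbtbd7 was near the threshold (limma adjusted p 0.0501) and passed it as lower in 4 of 15 alternatives, whereas Kbtbd6 was at 0.548. Klhl11 was higher, while its neighbour Klhl10 was dim in both genotypes and differed by 0.25 (limma adjusted p 0.436). Klhl24 was higher, while its neighbour Klhl6 was dim and differed by 0.01 (limma adjusted p 0.989). Whether neighbours differ in their response was not tested.

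The ligase core was set beside its adaptors. Cul3 measured 10.85, 10.77 and 10.34 in mutant oocytes and 10.25, 10.15 and 10.05 in wild-type oocytes. All mutant arrays were above all wild-type arrays, but the difference of 0.50 (SE 0.17, limma adjusted p 0.144) was not called; without mutant replicate 3 it was (limma adjusted p 0.0341), as it was after quantile (0.0369) and cyclic loess normalization (0.0254). Rbx1 measured 9.70, 10.00 and 9.71 in mutant oocytes and 9.90, 9.90 and 9.95 in wild-type oocytes, overlapping at a difference of -0.11 (limma adjusted p 0.77). Over the 23 measured genes of the Cul3 core, neddylation and the COP9 signalosome, limma called 0 higher and 1 lower. Over all genes it called 6.4% higher and 4.04% lower. The median difference was -0.04 over all genes and -0.09 over these 23. At an unadjusted p under 0.05 there were 2 higher and 3 lower, near the 11% and 13.5% of all genes. The count called higher was 2 after quantile or cyclic loess normalization and without mutant replicate 3.

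The gene called lower there was Cops7b, a COP9 signalosome subunit, which averaged 6.81 ± 0.49 in mutant and 7.96 ± 0.16 in wild-type oocytes (SD, n = 3; difference -1.15, limma adjusted p 0.0311). It missed the threshold without mutant replicate 2 (limma adjusted p 0.0552) or without wild-type replicate 1 (0.105), 2 (0.0694) or 3 (0.118). Cops7b also missed it after median centring (limma adjusted p 0.0691) and with the sample number as a replicate block (0.0662). Of 8 other cullins and RING partners, 2 were higher, where 6.4% of all genes were. Rnf7, the RING partner of Cul5, measured 11.44, 11.15 and 10.71 in mutant oocytes and 8.23, 8.62 and 7.95 in wild-type oocytes, a wide separation (difference 2.83, SE 0.24, limma adjusted p 5.48e-04). Cul4a, the scaffold of Ddb1-based ligases, averaged 6.34 ± 0.23 in mutant and 5.16 ± 0.28 in wild-type oocytes (SD, n = 3; difference 1.19, limma adjusted p 0.0106).

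Related adaptors outside the family were counted in the same fit. None of 4 kelch BTB adaptors with other symbols was called by limma, where 10.4% of all genes were called. Of these adaptors, 1 was higher and 0 lower at an unadjusted p under 0.05. The largest difference among them was that of Ivns1abp, 0.58 (limma adjusted p 0.0991), while Keap1, the adaptor for the antioxidant factor Nfe2l2, averaged 5.13 ± 0.07 in mutant and 5.27 ± 0.20 in wild-type oocytes (SD, n = 3). Of 24 other BTB adaptors of Cul3, 2 were higher and 0 lower in the limma fit, where 6.4% and 4.04% of all genes were. At an unadjusted p under 0.05, 5 were higher and 6 lower (11% and 13.5% of all genes). The count called higher was 4 after cyclic loess normalization, 4 with only probe sets above the median level and 5 with 1 probe set per gene in the fit. The count called lower was 2 under the last 2 of these and after quantile normalization. Btbd3, which orients dendrites in mouse cortical neurons, measured 7.64, 7.83 and 7.53 in mutant oocytes and 4.02, 4.49 and 4.82 in wild-type oocytes. That is a separation of 3.22 (SE 0.22, limma adjusted p 2.26e-04), from a wild-type mean below the dim level. Spopl, a relative of the adaptor Spop, was called higher by 0.91 (limma adjusted p 0.00937) with both means below the dim level. Of 10 kelch proteins without a BTB domain, 1 was called, where 10.4% of all genes were. Klhdc1, an adaptor of Cul2, averaged 6.15 ± 0.48 in mutant and 7.26 ± 0.27 in wild-type oocytes (SD, n = 3). Its difference was -1.11 (limma adjusted p 0.0431). The Klhdc1 call was kept without mutant replicate 1 (limma adjusted p 0.0291) and missed without any other array (0.066 to 0.151). It was also missed after median centring (limma adjusted p 0.0814) and cyclic loess normalization (0.0666).

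**Figure D5:**
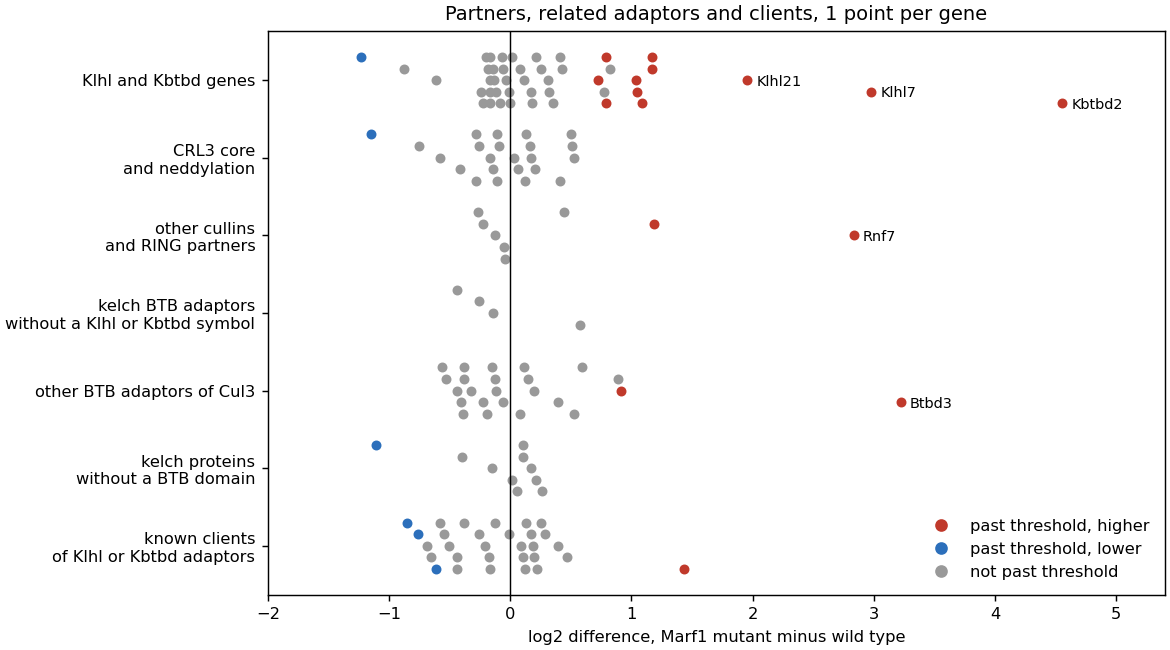
Log2 difference (Marf1 mutant minus wild type), 1 point per gene, for the 45 Klhl and Kbtbd genes and 6 lists of partners, related adaptors and clients. Red and blue points passed the threshold higher and lower; the labelled points are Kbtbd2 (4.56), Klhl7 (2.98), Klhl21 (1.96), Rnf7 (2.83) and Btbd3 (3.22).

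Of 30 measured transcripts listed as clients or partners of kelch BTB adaptors, 1 was higher and 3 were lower. Over all genes, 6.4% were called higher and 4.04% lower. The median difference was -0.15 over the list and -0.04 over all genes. The list includes Nfe2l2, which belongs to Keap1 and not to a Klhl or Kbtbd adaptor. At an unadjusted p under 0.05, 2 were higher and 11 lower, where 11% and 13.5% of all genes were. The count called lower was 0 to 5 over the alternatives, with 0 without mutant replicate 2 or wild-type replicate 3. Wnk3, a kinase of the family handled by Klhl2 and Klhl3, averaged 7.70 ± 0.17 in mutant and 6.26 ± 0.46 in wild-type oocytes (SD, n = 3; 1.43, limma adjusted p 0.0111), and missed the threshold without wild-type replicate 3 (0.0534). Its relative Wnk2 averaged 6.47 ± 0.08 in mutant and 7.09 ± 0.10 in wild-type oocytes (-0.62, limma adjusted p 0.0324). Dvl3, a Dishevelled protein of Wnt signalling, averaged 7.18 ± 0.15 in mutant and 8.03 ± 0.24 in wild-type oocytes (-0.85, limma adjusted p 0.0239). Tiam1, the Rac activator that Kbtbd6 and Kbtbd7 act on, averaged 8.33 ± 0.16 in mutant and 9.09 ± 0.14 in wild-type oocytes (-0.76, limma adjusted p 0.023).

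Each of the 3 lower client calls depended on single arrays. Wnk2 and Tiam1 also missed the threshold after cyclic loess normalization, and Wnk2 and Dvl3 with the sample number as a replicate block. Wnk2 kept its call without mutant replicate 3 (limma adjusted p 0.0338), and missed the threshold without any other array (0.0889 to 0.131). Tiam1 likewise kept its call without mutant replicate 3 (0.0316) and missed it elsewhere, at 0.0565 without mutant replicate 1, 0.0749 without mutant replicate 2, 0.096 and 0.0885 without wild-type replicates 1 and 3, and 0.05 when rounded without wild-type replicate 2. Dvl3 kept its call without mutant replicate 1 (0.0459) or wild-type replicate 1 (0.0416) only, and reached 0.0505 without mutant replicate 3, 0.0765 without mutant replicate 2, and 0.0739 and 0.089 without wild-type replicates 2 and 3. Among clients of the called adaptors, Dvl3, a client of Klhl12, was the 1 called, and it was lower. The others listed were not called: Pik3r1 differed by -0.68 (limma adjusted p 0.149), Plk1 by -0.38 (0.244), Aurkb by 0.20 (0.557) and Katna1 by 0.19 (0.548). Pef1 and Pdcd6, also on the list and not called, differed by 0.28 (limma adjusted p 0.388) and 0.47 (0.237). Of the other clients of Klhl12, Sec31a differed by -0.58 (limma adjusted p 0.0957), Dvl1 by 0.25 (0.609) and Dvl2 by -0.12 (0.816). Of those of Klhl20, Pml differed by -0.26 (limma adjusted p 0.376), Dapk1 by -0.50 (0.156) and Ulk1 by 0.12 (0.778). Depdc5, a further client of Klhl22, differed by -0.65 (limma adjusted p 0.129), and Kdm1a, Rcor1, Hdac1 and Hdac2 of the CoREST complex by -0.21 to 0.13. These are transcripts, and ubiquitin ligases act on proteins, which were not measured.

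Promoters were compared as a property that the choice of members by symbol did not use. The motifs, however, were chosen after the expression values had been seen, and the split by call uses those values. Counts by call are therefore descriptions and not independent evidence. RefSeq promoter windows were matched for 37 of the 45 members, taking the first listed start of a gene (8 members had several). Their median GC content was 58.8%, with 62.4% in the 9 matched higher members, 56.8% in the 27 matched members not called and 52% over 27025 genes. Median counts of the dinucleotide CG per window were 14, 16, 11 and 6 in the same order. The members' windows were thus richer in G, C and CG than those of all genes, as a description with no test.

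Among motifs, the ETS-type CCGGAAG stood in 8 of 37 member windows (21.6%), 4 of them among the 9 higher members (Kbtbd4, Klhl20, Klhl21 and Klhl22) and 4 among the 27 not called, while 7.05% of all windows held it. The palindromic E box CACGTG stood in 3 of 37 (8.11%), all 3 of them higher members (Klhl20, Klhl22 and Klhl28), while 6.05% of all windows held it. TATAAA stood in 4 member windows (10.8%) and in 13% of all windows, and CCAAT in 7 (18.9%) and 34.5%. No higher member held TATAAA in its window. None of these motifs overlaps another in the 5 printed sequences, and a match of letters does not show that a factor binds there.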

How the data were processed

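Amplified, biotin-labelled cDNA from denuded fully-grown oocytes was hybridised, per the labels' protocols, with 1 sample on each array (3 Marf1-mutant, 3 wild-type). The authors deposited log2 expression values per probe set, rounded to 2 decimals; the submitters' processing notes name GCOS, Affymetrix Expression Console 1.1 and RMA. RMA is meant to bring arrays to a common distribution, so a change in total RNA is not visible. Differences are relative to the rest of the array. The deposited arrays did not fully share a distribution: the SD over probe sets was 2.04 in mutant replicate 3 and 2.14 to 2.20 in the others. For the array design, no genome build was named in the labels or file; the only coordinates printed are those of the promoter windows, which come from RefSeq on GRCm38.p6. The number of arrays limits the precision.

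Of 35556 probe sets, 21789 were annotated to 1 gene, 1621 to several and 12146 were not named here; genes were named from the first kind only. All probe sets entered a two-sided, unfiltered fit with genotype as its term (R 4.3.3, limma 3.58.1, functions lmFit and eBayes), with Benjamini-Hochberg adjustment over all of them. The procedure was also run on simulated data with independent noise of equal spread on all arrays. That setting leaves out the deviation of mutant replicate 3, and no result above rests on it. Every called member is named with its values, as are Marf1, Cul3, Rbx1 and up to 4 called genes per list; other genes named were chosen after their values were seen. The lists cover the Cul3 core with neddylation, other cullins, related kelch, BTB and non-BTB proteins, clients and 4 sets of cell markers. Members, lists and role groups were chosen with earlier results of these data known. The 15 alternatives were array centring, 2 normalizations, a filter at the median level, 3 choices of probe set, a variance model, a replicate block and each array left out. Same-numbered mutant and wild-type arrays deviated from their group means with correlations of 0.147, -0.0992 and 0.0267, so the numbers were not treated as pairs. Probe sequences were not used here, and cross-hybridisation between related genes was not tested.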

Additional observations from a re-analysis of the deposited data

How the results depend on the processing

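The number of members called higher (11) was 9 to 13 under the 8 alternatives of centring, normalization, filter, probe set choice and variance model. That number was 5 to 8 with 1 array left out, and 4 to 7 in place of 8 where a change of at least 2-fold was also required. The genes behind the counts changed too. After median centring Kbtbd4 (limma adjusted p 0.106), Klhl12 (0.0541), Klhl24 (0.0857) and Kbtbd3 (0.0567) missed the threshold, and Klhl25 (0.0456) passed it. Klhl11 missed it after quantile normalization (0.056). The number called lower (1) was 0 after median centring, 2 after quantile normalization, 3 with only probe sets above the median level in the fit, 3 with 1 probe set per gene in the fit, 2 with a trended, robust variance model, and 0 to 1 with 1 array left out; with 2-fold required it was 0 after median centring and 0 to 1 with 1 array left out. With the sample number as a replicate block, 6 members were higher and 1 was lower, and 6 and 1 with 2-fold required; the block ended the calls of Kbtbd4, Klhl11, Klhl12, Klhl24 and Klhl42, but the samples share only a number. Over 15 alternatives for each of the 12 called members, 138 of 180 values kept direction and threshold, 42 kept direction and missed the threshold and 0 reversed. Kbtbd2, Klhl7, Klhl22 and Klhl28 passed in all 15. Over all genes, 825 to 1708 were called higher and 199 to 1514 lower, against 1276 and 806. With 1 array left out there were fewer samples, and with 1 probe set per gene fewer tests; the cause of the other moves was not tested.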
